A study of Mus musculus with 4 samples.

Results

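Intermediate progenitor and proneural genes were examined in the embryonic mouse cortex after loss of *Qk*, the gene of the RNA-binding protein Quaking. The members were the 8 genes with the symbols *Eomes*, *Neurog1*, *Neurog2*, *Insm1*, *Btg2*, *Gadd45g*, *Neurod1* and *Neurod6*, and all 8 were found among the 23038 genes in the files. They were chosen by name, with earlier results of these data known. Poly-A selected RNA was sequenced from the E14.5 cortex (embryonic day) of 2 control and 2 *Qk* cKO embryos. The study describes them as littermates, and the sample titles do not give the litter. Controls are labelled wild type and are *Qk* fl/fl in the study's results, so that both groups carry the floxed alleles. *Qk* cKO embryos carry the same alleles with *Nestin*-cre, a transgene whose promoter is active in neural progenitor cells, and lose *Qk* in these cells and their progeny. The cortex was sequenced as bulk tissue.

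In the developing cortex, radial glia divide at the ventricle and produce intermediate progenitors, which move to the subventricular zone and divide to produce projection neurons. Proneural genes encode basic helix-loop-helix (bHLH) transcription factors that dimerize with E proteins, bind E-box sequences and switch on neuronal differentiation together with Notch ligands. *Neurog1* and *Neurog2* act first in dorsal progenitors, *Eomes* (also called Tbr2) and *Insm1* mark and promote the intermediate progenitor state, and *Neurod1* and *Neurod6* follow as progenitors become neurons. *Btg2*, an antiproliferative gene, is transcribed in progenitors that undergo neurogenic divisions, and *Gadd45g* is a growth arrest gene switched on downstream of proneural factors.

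None of the 8 genes was called as changed in *Qk* cKO by edgeR's quasi-likelihood test, where a call needed both a p-value under 0.01 and an FDR (Benjamini-Hochberg) under 0.1. Of the 18834 genes tested 0.584% were called (110 genes, with 0.207% higher and 0.377% lower in *Qk* cKO), and of the 12743 with a mean RPKM of at least 1, 0.8% were. At an unadjusted p below 0.05 there was 1 of 8, *Neurog1*, against 8.76% of all genes and 11.1% of those with a mean RPKM of at least 1. Neither edgeR's exact test nor DESeq2 called any of the 8, with 1 and 0 at an unadjusted p below 0.05. Of the 18834 genes, 1207 and 1009 were at that level by these 2 tests. The level of *Eomes* was nearly equal in both groups, and its 95% interval ran from 0.931 to 1.10 times control. For 7 of the 8 genes the interval held the control level, and *Neurog1* was the exception.

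The libraries held between 37942046 and 42994832 tags on genes, a tag being the unit that the authors' quantification assigned to a gene. The TMM scaling factors lay between 0.989 and 1.01. The tags joining exon 2 of *Qk* to exon 3 numbered 635 and 565 in control replicates 1 and 2, and 63 and 68 in *Qk* cKO replicates 1 and 2. The genotype labels thus matched the targeted exon in all 4 libraries. Tags over the whole gene rose, with a *Qk* RPKM of 21.1 and 21.7 in control against 32.5 and 34.2 in *Qk* cKO (FDR 2.5e-05 by edgeR). In bulk RNA, fewer cells of a type and less RNA per cell cannot be told apart.

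Sequences are shown for the annotated splicing events of these genes and for the Quaking motif in their spliced transcripts. Of the 8 genes, *Neurog1* and *Insm1* have a single exon, and *Neurog2*, *Neurod1* and *Neurod6* have 2 exons of which 1 is coding in the mouse annotation GENCODE M21 on GRCm38. The splicing files held 1 event each for *Eomes* and *Gadd45g* and none for the other 6. The event of *Eomes*, on the plus strand of chromosome 9, is a choice between acceptor sites of its last exon, exon 6. The upstream acceptor adds the 57 nt of chr9:118484274-118484330, or 19 codons, which keep the reading frame. The event of *Gadd45g*, on the plus strand of chromosome 13, is retention of the 102 nt intron between coding exons 2 and 3, chr13:51847454-51847555. Capitals mark the added exon part and the intron, and lower case the 12 exonic bases on either side in the transcript.
Eomes: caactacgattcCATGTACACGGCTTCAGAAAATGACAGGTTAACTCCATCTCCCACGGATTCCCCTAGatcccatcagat
Gadd45g: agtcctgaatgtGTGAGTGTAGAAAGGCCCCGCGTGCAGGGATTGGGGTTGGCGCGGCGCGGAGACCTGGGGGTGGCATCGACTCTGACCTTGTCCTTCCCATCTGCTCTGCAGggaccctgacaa

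The core motif that Quaking binds in RNA is ACUAAC, and ACTAAC was searched on the sense strand of the longest coding transcript of each gene. It occurred in 1 of the 8, *Neurog2*, and in 19.5% of the 11625 coding transcripts whose length lies within the range of the members, 1071 to 3560 nt. The single site lies in the 3′ UTR of *Neurog2* on the plus strand, chr3:127634788-127634793. It is shown with 10 bases on either side, the motif in capitals, because it is the only match among the 8 transcripts.
Neurog2: aagtaccataACTAACgagtgtgcag
A match of these letters is a description and was not tested for binding. Neither event sequence above contains ACTAAC. Introns other than the *Gadd45g* intron shown were not searched, so sites there are not known.

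The levels of the 8 genes in control spanned from *Neurod6*, with an RPKM of 152 ± 19.9 (SD, n = 2), to *Neurog1*, with 2.07 ± 0.0426 (SD, n = 2). RPKM relates tags to exon length and library size, so genes of different length can be compared. Between them lay *Eomes* with 45.8 ± 2.86, *Gadd45g* with 25.3 ± 1.34, *Neurog2* with 24.5 ± 0.531, *Btg2* with 21.0 ± 0.693, *Neurod1* with 14.6 ± 0.395 and *Insm1* with 10.9 ± 0.866 (RPKM, SD, n = 2 each). *Gadd45g* and *Neurog2* were neighbours whose control samples overlapped, and the other neighbours in this order did not overlap. The same order of mean RPKM was found in *Qk* cKO. In the cortex at this age *Neurod6* was thus the most abundant of the 8 and *Neurog1* the least, while *Neurod1* lay below *Neurog2*.

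**Figure D1:**
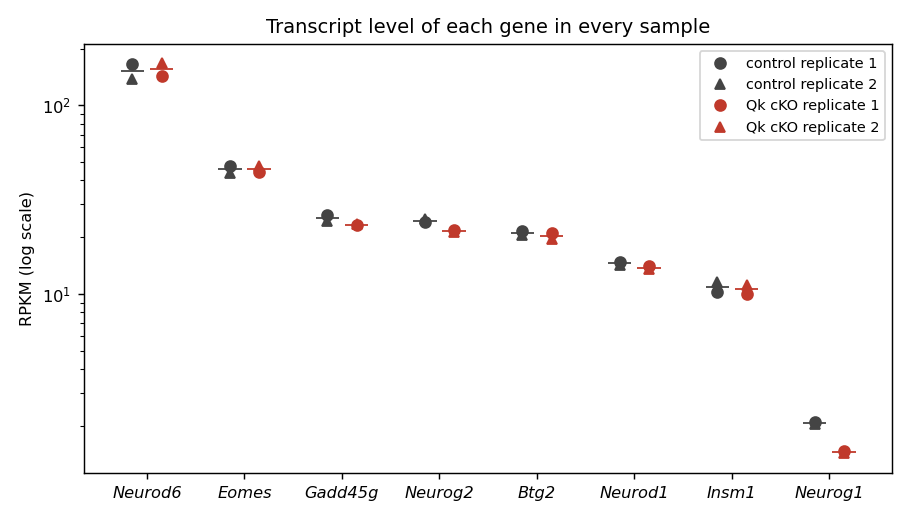
RPKM of the 8 genes (log axis) in each of the 4 samples, with circles for replicate 1, triangles for replicate 2 and short lines for the group means. The *Qk* cKO points lie on or beside the control points except in *Neurog1*, where RPKM of 1.48 and 1.43 stand below 2.10 and 2.04.

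Among the proneural genes, *Neurog1* showed the largest difference of the 8. Its RPKM was 2.10 and 2.04 in control replicates 1 and 2, and 1.48 and 1.43 in *Qk* cKO replicates 1 and 2. The groups did not overlap, and the gap between them was larger than the gap within either. These levels rest on 145 and 129 tags in control and on 106 and 98 tags in *Qk* cKO, the fewest of the 8 genes. The log2 fold change was -0.49 (standard error 0.21, 95% interval -0.94 to -0.05, FDR 0.484 by edgeR), equal to 0.710 times control. Of all genes tested, 6.40% had a smaller p-value. The transcript of *Neurog1* was therefore not called, while its interval allows a level between 0.522 and 0.966 times control.

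*Neurog2*, the main proneural gene of the dorsal cortex, had an RPKM of 24.1 and 24.8 in control replicates 1 and 2, and 21.7 and 21.3 in *Qk* cKO replicates 1 and 2. Both *Qk* cKO samples lay below both controls. The log2 fold change was -0.17 (standard error 0.088, 95% interval -0.36 to 0.01, FDR 0.610 by edgeR), or 0.887 times control. Since *Neurog1* was lower by more than its paralog, the RPKM of *Neurog2* was 11.5 and 12.2 times that of *Neurog1* in control, and 14.7 and 14.9 times in *Qk* cKO. The ratio is a description and was not tested.

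The genes that mark and promote intermediate progenitors differed little. *Eomes* encodes a T-box factor and is the defining marker of these cells. Its RPKM was 47.8 and 43.8 in control replicates 1 and 2, and 44.5 and 47.5 in *Qk* cKO replicates 1 and 2. The groups overlapped, and replicates of the same group differed by more than the group means. The log2 fold change of *Eomes* was 0.02 (standard error 0.058, 95% interval -0.10 to 0.14, FDR 0.956 by edgeR). *Insm1*, a zinc-finger factor that promotes the formation of basal progenitors, had an RPKM of 10.3 and 11.5 in control, and 10.04 and 11.1 in *Qk* cKO. Here too the groups overlapped, and the log2 fold change was -0.03 (standard error 0.11, 95% interval -0.26 to 0.20, FDR 0.959 by edgeR).

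The genes linked to neurogenic division and growth arrest were also close to control. *Btg2* had an RPKM of 21.5 and 20.6 in control replicates 1 and 2, and 21.1 and 19.5 in *Qk* cKO replicates 1 and 2. Its groups overlapped, and its log2 fold change was -0.04 (standard error 0.078, 95% interval -0.20 to 0.12, FDR 0.926 by edgeR). *Gadd45g* had an RPKM of 26.2 and 24.3 in control, and 23.3 and 23.4 in *Qk* cKO. Both *Qk* cKO samples lay below both controls, by less than the difference between the controls, and the log2 fold change was -0.10 (standard error 0.11, 95% interval -0.33 to 0.13, FDR 0.858 by edgeR).

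The NeuroD genes, which act as progenitors become neurons, did not pass the test either. *Neurod1* had an RPKM of 14.9 and 14.3 in control, and the *Qk* cKO samples had 14.1 and 13.6. In TMM-scaled CPM its control samples had 37.0 and 35.4 and its *Qk* cKO samples 35.5 and 33.7, so that the groups overlapped, whereas in RPKM both *Qk* cKO samples lay below both controls. Its log2 fold change was -0.07 (standard error 0.10, 95% interval -0.28 to 0.15, FDR 0.901 by edgeR). *Neurod6*, which marks newborn projection neurons, had an RPKM of 166 and 138 in control replicates 1 and 2, and 143 and 167 in *Qk* cKO replicates 1 and 2. With the widest spread between replicates of the 8 genes on the log2 scale (SD 0.17), its groups overlapped. Its log2 fold change was 0.04 (standard error 0.088, 95% interval -0.15 to 0.22, FDR 0.942 by edgeR).

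**Figure D2:**
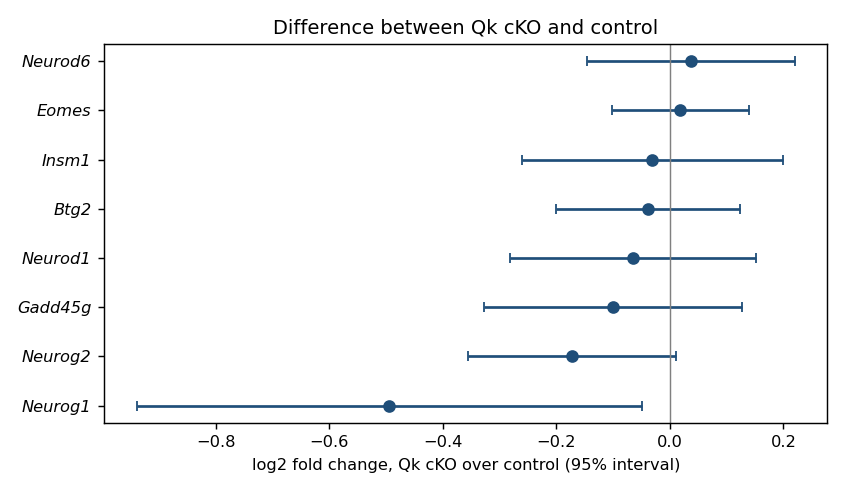
Log2 fold change of each gene, *Qk* cKO over control, from edgeR's quasi-likelihood fit; points are estimates and bars 95% intervals. The interval of *Neurog1*, -0.94 to -0.05, is the widest and the only one of the 8 that leaves out 0.

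Considered as a group, 6 of the 8 estimates were negative and 2 positive. The median log2 fold change was -0.05, beside a median of -0.0025 over all 18834 genes. In TMM-scaled tags, both *Qk* cKO samples lay below both controls in 3 of the 8 genes (*Neurog1*, *Neurog2* and *Gadd45g*) and above them in none. Over all genes tested 18.3% lay below in this way and 18.6% above, and over the 12743 genes with a mean RPKM of at least 1 the shares were 19.5% and 21.2%. Whether 3 of 8 differs from these shares was not tested.

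For both splicing events, isoform tags were summed over the replicates of a group and entered Fisher's exact test. For *Eomes*, the upstream acceptor had 508 and 426 junction tags in control replicates 1 and 2, and 598 and 574 in *Qk* cKO replicates 1 and 2. The downstream acceptor had 91.2 and 66.8 tags in control, and 88.1 and 85.1 in *Qk* cKO. The 57 nt shown above were thus included in most transcripts of every sample. Control replicate 1 had an inclusion of 0.848 (95% Wilson interval 0.817 to 0.874) and control replicate 2 of 0.864 (0.831 to 0.892). Both *Qk* cKO replicates had 0.871 (0.844 to 0.894 for replicate 1, 0.843 to 0.894 for replicate 2). The difference Δ*I*, control minus *Qk* cKO, was -0.0159, and Fisher's exact test on isoform tags gave p = 0.484 and FDR 0.827. On the junction tags given here, Fisher's exact test gave p = 0.259 and FDR 0.641. The 4 intervals overlap, although both *Qk* cKO values lie above both controls. Of the 2648 alternative 3′ splice sites tested, 7.85% were called at the same thresholds.

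For the intron of *Gadd45g*, tags across both exon-intron boundaries together numbered 42.0 and 18.0 in control replicates 1 and 2, and 29.0 and 37.0 in *Qk* cKO replicates 1 and 2. Spliced junction tags numbered 204 and 172 in control, and 190 and 164 in *Qk* cKO. Retention was calculated from the mean of the boundaries, that is from these boundary tags divided by 2, over that mean plus the spliced junction tags. It ran from 0.0497 (95% Wilson interval 0.0264 to 0.0918) in control replicate 2 to 0.101 (0.0655 to 0.154) in *Qk* cKO replicate 2. Control replicate 1 had 0.0933 (0.0618 to 0.138), and *Qk* cKO replicate 1 had 0.0708 (0.0430 to 0.114). The groups overlapped, Δ*I* was -0.0114, and the exact test gave p = 0.441 and FDR 0.752. At the same thresholds 4.67% of the 1928 retained introns tested were called. Wilson intervals and Fisher's exact test on tags cover counting error only.

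**Figure D3:**
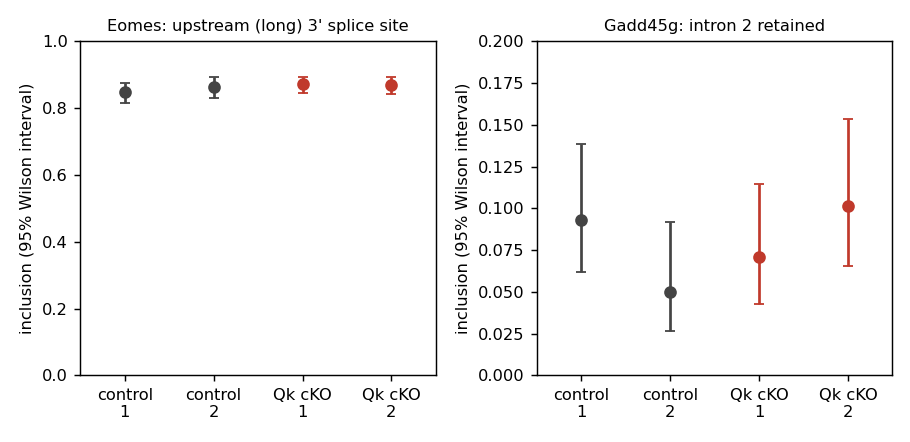
Inclusion of the upstream acceptor of *Eomes* exon 6 (left, axis from 0 to 1) and retention of the *Gadd45g* intron (right, axis from 0 to 0.2) in each sample, with 95% Wilson intervals. The *Eomes* values lie between 0.848 and 0.871 and the *Gadd45g* values between 0.0497 and 0.101, with overlapping intervals in both.

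Genes that act beside the 8 were taken from lists. Of 19 companions of neurogenesis (other proneural and neuronal bHLH genes, Notch ligands and genes of intermediate progenitors), none was called by edgeR's quasi-likelihood test, its exact test or DESeq2, with 5, 3 and 3 at an unadjusted p below 0.05. Over all 18834 genes, 1650, 1207 and 1009 were at that level by these tests. The median log2 fold change of the companions was -0.05. Their smallest p-values were those of *Elavl2*, an RNA-binding protein of early neurons, with a log2 fold change of 0.20 (FDR 0.212 by edgeR), and of *Dll3*, a Notch ligand, with -0.41 (FDR 0.214 by edgeR). The RPKM of *Dll3* was 7.91 in control and 5.89 in *Qk* cKO on average.

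Of 11 partners and inhibitors of bHLH factors, which include the E proteins and the Id and Hes families, none was called by these 3 tests, with 2, 1 and 3 at an unadjusted p below 0.05. The smallest p-values were those of *Id4*, an inhibitor that sequesters E proteins, with a log2 fold change of -0.23 (FDR 0.344 by edgeR), and *Tcf12*, an E protein, with 0.15 (FDR 0.559 by edgeR). None of 12 paralogs of the 8 genes was called by any of the 3 tests, with 1, 0 and 0 at an unadjusted p below 0.05. *Tbr1*, a T-box paralog of *Eomes* in deep-layer neurons that the lists of companions and of postmitotic neurons also hold, had a log2 fold change of 0.15 (FDR 0.540 by edgeR), and *Gadd45b* of 0.42 (FDR 0.784 by edgeR).

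The cells before and after intermediate progenitors in the lineage were compared by their markers. Of 12 radial glia genes, 3 fell in *Qk* cKO by edgeR's quasi-likelihood test and 9 were not called. At an unadjusted p below 0.05 there were 5 of the 12, and the median log2 fold change was -0.15. Of the 12743 genes with a mean RPKM of at least 1, 0.8% were called and 11.1% were at that level. In TMM-scaled tags both *Qk* cKO samples lay below both controls in 7 of the 12, and above them only in *Pax6*. The shares over the 12743 genes were 19.5% and 21.2%. Of the 12 estimates 3 were positive, those of *Pax6* (0.077), *Hes1* (0.082) and *Nes* (0.040). *Fabp7*, a fatty acid binding protein of radial glia, fell by 0.45 on the log2 scale (FDR 0.0153), *Tnc*, a matrix protein, by 0.37 (FDR 0.00656), and *Slc1a3*, a glutamate transporter, by 0.23 (FDR 0.0887, all by edgeR). *Fabp7* and *Tnc* are among the genes that the study lists as changed. All 3 were measured in the same samples as that list, so their direction is no independent evidence. None of the 12 was called after edgeR's filterByExpr, with 5 at an unadjusted p below 0.05. The exact test and DESeq2 called 2 each. Among 10 genes of postmitotic neurons none was called by the 3 tests, with 1, 0 and 1 at an unadjusted p below 0.05. *Tbr1* had the smallest p-value here too, followed by *Dcx*, a microtubule protein of migrating neurons, which had a log2 fold change of 0.16 (FDR 0.633 by edgeR).

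Of 8 proliferation genes 1 rose, *Ccnd2*, a cyclin of the G1 phase present in cortical progenitors, with a log2 fold change of 0.37 (FDR 0.0459 by edgeR). In all, 7 of the 8 estimates were positive with a median log2 fold change of 0.15. By the quasi-likelihood test 4 of 8 had an unadjusted p below 0.05. The share was 8.76% of all genes and 11.1% of those with a mean RPKM of at least 1. By the exact test 1 of 8 was at that level and by DESeq2 2 of 8, against 1207 and 1009 of all 18834 genes. *Ccnd2* is also on the study's list for these samples, and was not called after filterByExpr or by the exact test. *Ccnb1*, a mitotic cyclin, had a log2 fold change of 0.19 (FDR 0.448 by edgeR).

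**Figure D4:**
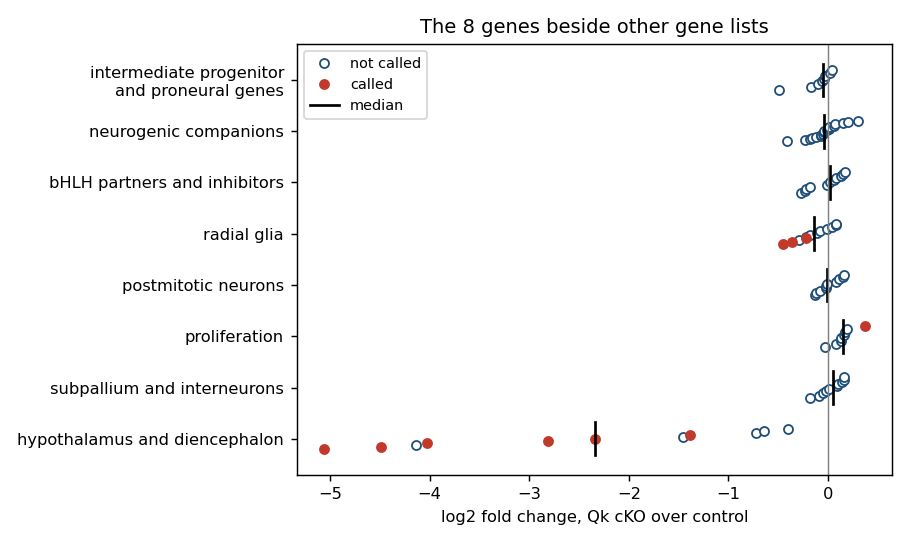
Log2 fold change, *Qk* cKO over control, of every tested gene in 8 lists; filled points were called (p below 0.01 and FDR below 0.1, edgeR), open points were not, and the bar is the list's median. The 8 intermediate progenitor and proneural genes hold no called gene, beside 0.584% of all genes tested, and have a median of -0.05. Radial glia genes hold 3 called lower, hypothalamic genes 6, and proliferation genes 1 called higher. The other lists shown hold none. After filterByExpr the called genes numbered 0 in radial glia, 1 in hypothalamus and 0 in proliferation.

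Markers of neighbouring regions were counted in the same way. Of 11 genes of hypothalamus and diencephalon, 6 fell by edgeR's quasi-likelihood test, 5 by its exact test, 1 after filterByExpr and 0 by DESeq2, with 10 at an unadjusted p below 0.05 by the first and 9 by DESeq2. Over all genes tested, 0.377% were called lower and 8.76% were at that level by the quasi-likelihood test. The 6 were *Six6*, *Nr5a1*, *Pomc*, *Sox14*, *Nkx2-2* and *Otp*, and all but *Otp* are on the study's list. All 6 were measured in the same samples as that list, so their direction is not independent evidence. *Pomc*, the precursor of melanocortin peptides, fell by 2.34 on the log2 scale (FDR 0.0227) and *Otp*, a homeobox gene, fell by 1.39 (FDR 0.0887, both by edgeR). The summed RPKM of the 11 genes was 15.1 and 26.3 in control replicates 1 and 2, and 12.7 and 8.34 in *Qk* cKO replicates 1 and 2. *Nkx2-4* was at 0 in both *Qk* cKO samples, but its mean RPKM in control was only 0.049 and the groups overlapped. The summed RPKM of these markers was lower in both *Qk* cKO samples than in both controls. *Neurog1*, *Neurog2* and *Gadd45g* had the same order, as did 18.3% of all genes tested (in TMM-scaled tags). The part of the hypothalamic markers in the levels of these 3 genes was not tested.

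Of 10 subpallial and interneuron genes none was called by the 3 tests, with 2, 2 and 2 at an unadjusted p below 0.05. Their summed RPKM was 175 and 184 in the controls, and 186 and 183 in *Qk* cKO replicates 1 and 2. *Gad1*, an enzyme of GABA synthesis, had a log2 fold change of 0.16 (FDR 0.335 by edgeR), and *Gad2* also 0.16 (FDR 0.374 by edgeR).

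Among markers of other cell types, 1 of 6 Cajal-Retzius genes fell (*Lhx1*, by 0.94 on the log2 scale, FDR 0.0437 by edgeR), while *Lhx5* had -0.36 (FDR 0.507). *Reln* (0.15) and *Trp73* (0.033) were the 2 Cajal-Retzius genes with positive estimates. Of 6 erythroid genes 1 rose (the beta-globin gene *Beta-s*, 0.45, FDR 0.0620 by edgeR), and *Hbb-y* had 0.32 (FDR 0.289). Of 6 microglial genes 1 fell (*Ctss*, by 0.62, FDR 0.0547 by edgeR), and *Csf1r* had -0.11 (FDR 0.894). *Aif1*, *Cx3cr1* and *C1qa* had positive estimates of at most 0.016. *Lhx1*, *Beta-s* and *Ctss* were not called by DESeq2 or after filterByExpr. *Lhx1* and *Ctss* are on the study's list. No gene of endothelium (5 genes), meninges (6) or oligodendrocyte precursors (5) was called by edgeR's tests or DESeq2, with 0, 3 and 1 at an unadjusted p below 0.05 by the quasi-likelihood test. The smallest p-values were those of *Kdr* (0.13) and *Cldn5* (-0.15), *Dcn* (0.34) and *Col3a1* (0.21), and *Olig1* (-0.70) and *Olig2* (-0.20), all as log2 fold changes. Summed erythroid RPKM was 791 and 804 in the controls and 1144 and 849 in *Qk* cKO replicates 1 and 2, and summed meningeal RPKM was 127 and 117 against 116 and 157. The part of these markers in the levels of the 8 genes was not tested. The marker genes of the cortex itself were present in every sample, as the levels of *Neurod6* and *Eomes* show.

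The genes with the pattern most like *Eomes* over the 4 samples were *Tnfrsf19*, *Hdgfrp3* and *Fam125a*, with Euclidean distances of 0.00989, 0.0101 and 0.0120 between centred log2 CPM. Among the 12731 genes with a mean RPKM of at least 1 that were ranked, the closest of the other 7 members was *Gadd45g* at rank 2772 and the farthest *Neurog1* at rank 12111. The distance rests on 4 samples and is a description.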

How the data were processed

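The authors sequenced poly-A libraries, mapped the reads with OLego to mm10 and known junctions, and used Quantas for genes and splicing events. The deposited values are estimated counts of tags per gene, isoform and junction, and RPKM calculated by the authors from them. Between 8.41% and 12.1% of genes had a tag count that was not whole.

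Tags were rounded and compared with edgeR 4.0.16 (R 4.3.3, quasi-likelihood test, TMM, any gene with 1 tag or more in a sample, Benjamini-Hochberg over all genes), at the study's thresholds. Standard errors were derived from the F statistic. Leaving out a sample assumes that the lone sample varies like the other group. Events needed a coverage of at least 20 tags, and FDR was calculated within the event type. Tests were tested on simulated data.

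The members and lists were chosen with earlier results of these data known. Named were all members, list genes that were called, and, where fewer than 2 were called, the 2 smallest p-values of a list. *Map2* and *Hbb-bs* were found by gene ID as *Mtap2* and *Beta-s*, and *Hbb-bt* was not found. Alternatives were upper-quartile and library-size scaling, filterByExpr, edgeR's exact test, DESeq2 1.42.0, the replicate number as a block, each sample left out, junction tags only, and coverage of at least 10 or 50. Chosen after seeing the data were the Cochran-Mantel-Haenszel test of the events, the lookup by gene ID, the other tests of the lists, and the motif search over all coding transcripts.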

Additional observations from a re-analysis of the deposited data

How the results depend on the processing

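None of the 8 genes was called under any of the 10 alternatives, and in the 6 that kept every sample all 48 estimates had the sign of the main fit. Over the 10 alternatives, adjusted p lay between 0.463 and 0.920 for *Neurog1* (none was given by DESeq2) and between 0.553 and 0.968 for *Neurog2* (edgeR or DESeq2). With each sample left out, *Neurog1* stayed between -0.53 and -0.46 and *Neurog2* between -0.20 and -0.15 on the log2 scale, and the median of the 8 lay between -0.11 (without *Qk* cKO replicate 1; -0.096 without control replicate 2) and -0.039. The sign turned for the levels of *Eomes* (-0.049 to 0.086, and -0.020 without *Qk* cKO replicate 2), *Insm1* (-0.11 to 0.047), *Neurod6* (-0.095 to 0.18) and *Btg2* (-0.11 to 0.027). It also turned for the *Gadd45g* intron (Δ*I* -0.0355 to 0.00803), which was not tested with a sample left out, but not for the level of *Gadd45g*. The number of transcripts called over all genes moved more, to 11 with filterByExpr, 57 with the exact test and 192 when replicate numbers formed a block. It was 11 without control replicate 1, 0 without control replicate 2 (966 at an unadjusted p below 0.05, edgeR), 428 without *Qk* cKO replicate 1 and 68 without *Qk* cKO replicate 2. The cause was not tested. Replicate numbers were not taken to pair the samples, since the sample titles do not give the litter. Deviations from the group means correlated between equal numbers by 0.30 over 12928 expressed genes and by -0.089 over the 11182 autosomal ones. These values cannot show whether equal numbers shared a litter. With the block, no member was called. The depth behind *Neurog1* was 98 to 145 tags a sample, the lowest of the 8 genes, and the smallest change that could be called was not determined.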
